A study of Mus musculus with 10 samples.

Results

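The regions described here are CUT&RUN peaks at the 3′ ends of genes for the elongating form of RNA polymerase II, whose C-terminal domain is phosphorylated on serine 2 (Pol II S2P). A peak was a member when it lay on an autosome, was shorter than 2000 bases, was listed with a protein-coding gene longer than 5000 bases, and had its centre within 1000 bases of the annotated 3′ end of that gene. This held for 1543 of the 51322 Pol II S2P peaks, in 1345 genes on 19 chromosomes. The rule used position only, and no measured score. Peaks were compared with 5164 peaks at gene starts and 26108 peaks in gene bodies, cut by the same limits on peak and gene length.

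The study asked how loss of Kmt5b, which encodes a histone H4 lysine 20 methyltransferase also called Suv4-20h1, affects muscle stem cells (MuSCs). Both genotypes carried a tamoxifen-inducible Cre recombinase driven by Pax7, a gene active in satellite cells, so the control label Pax7CreERT/Suv4-20h1WT (Ctrl) differs from Pax7CreERT/Suv4-20h1KO (sKO) in the Kmt5b allele and not in the Cre. Adult mice received tamoxifen, and MuSCs were purified with magnetic beads and cultured before CUT&RUN, which sequences the DNA that an antibody-tethered nuclease releases. The labels give 2 libraries of each genotype for Pol II S2P and 2 for histone H4 monomethylated at lysine 20 (H4K20me1). Replicates are separate samples of cultured cells, and a lower signal in every cell and fewer cells with signal cannot be told apart.

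Serine 2 phosphorylation builds up on the polymerase as it moves through a gene. Near the 3′ end it recruits the cleavage and polyadenylation factors, which cut the transcript some bases after a hexamer, most often AAUAAA in the RNA, while the polymerase reads on beyond the cut until it is released from DNA. A mammalian gene therefore usually carries Pol II S2P past its annotated end.

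Values are scores, whole numbers that stand for spike-in normalised coverage of a peak and are not divided by its length. Over all peaks the Ctrl libraries held a Pol II S2P score of 3257665 and 4243685 and the sKO libraries one of 4885638 and 3435908. The libraries of 1 genotype thus differed in total by more than the means of the genotypes did. The 2 peaks listed with Kmt5b, the deleted gene, had a summed score of 24 and 62 for Ctrl against 48 and 22 for sKO, which overlap, and none of them lay at its 3′ end. Peaks were listed with 8 of 10 genes of the satellite cell and myoblast list, with sums over the list between 6502 and 9483 in the 4 libraries. Pax7, Myod1 and Des had peaks, whereas Myf5 and Cdh15 had none. Myod1, which encodes a transcription factor of myoblasts, summed to 1329 and 1110 in Ctrl against 887 and 649 in sKO over 2 peaks, with no overlap on the deposited scale, and its part in the results below was not tested. The lists for fibroblasts and endothelial cells had peaks at 2 of 5 genes each and summed to between 92 and 148 and between 133 and 256. No peak was listed for Pdgfra, Cdh5 or Ptprc, which, as at Myf5 and Cdh15, leaves the level there unmeasured. The immune list summed to between 922 and 1452, most of it in 1 peak of Cd68, and the list for differentiated muscle to between 406 and 725.

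The hexamers that signal polyadenylation were common at these ends. Either AATAAA or ATTAAA stood on the gene's strand within the last 50 bases of 78.3% of the 1345 genes, and AATAAA alone in 63.6%. On the opposite strand the same 2 hexamers were found in 12.6%. The share was 73.9% of the 17030 autosomal protein-coding genes over 5000 bases in GENCODE M21 and 78.2% of the 4638 of them with a start peak. It was also 78.2% of the 3907 genes with a start peak and no member. TGTGT, 1 form of the GT-rich element that follows many cleavage sites, stood on the gene's strand in the next 50 bases in 20.5% of the genes and in 20.1% of all. The last 30 bases of the gene are printed below for members with the highest mean scores and for 2 of those that differed most between genotypes, read 5′ to 3′ on the gene's strand from the RefSeq sequence of GRCm38, with each AATAAA or ATTAAA in capitals, overlapping matches included.
Susd1, minus strand of chr4:59314683-59314712: tttctataaaattgttctgtgcctcccttg
Rab26, minus strand of chr17:24527241-24527270: attctagttaaAATAAAaagttaaaaatca
Rps15a, minus strand of chr7:118104372-118104401: tgAATAAAATAAAgcattttttttaaaacc
Ppp2r3d, minus strand of chr9:124422622-124422651: gacatggccgtggttgccaaggtatgtggg
Tpp1, minus strand of chr7:105744811-105744840: aaATTAAATAAAtgactgtttaaaaaaaaa
Rps19, plus strand of chr7:24889777-24889806: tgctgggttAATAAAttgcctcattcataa
Asb6, minus strand of chr2:30823097-30823126: gagatgATTAAAtatatttataagATTAAA
Cmbl, plus strand of chr15:31590090-31590119: tcaacctAATAAAgtgatttttaaaacttg
Jrk, minus strand of chr15:74702301-74702330: gctcctcagccattacaaccctcattccta
Ppp1r10, plus strand of chr17:35932254-35932283: aaacagtggaaagagaagcagctcatttaa
Klrg2, minus strand of chr6:38625693-38625722: cAATAAATAAAgccagcagcattgtcattt
Of these stretches, Asb6 holds ATTAAA alone, and Susd1, Ppp2r3d, Jrk and Ppp1r10 hold neither hexamer. The peaks of Susd1 and Ppp2r3d lay close to an annotated transcript start.

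Pol II S2P peaks were spread around 3′ ends rather than concentrated at them. Over 13520 genes longer than 10000 bases, there were 28.6 peaks per 1000 genes in the bin of 500 bases that opens 5000 bases before the end, 46.0 in the last 500 bases of the gene, and 73.9 between 2000 and 2500 bases past it. The density was still 60.5 in the bin that closes 5000 bases past the end. At gene starts, by contrast, 226.8 peaks per 1000 genes fell in the 500 bases before the start and 141.3 in the 500 bases after it. The members are therefore the near edge of a broad zone. A peak was listed only with a gene that it overlapped, so peaks wholly past an end carry no gene, and 830 of the 13258 short autosomal peaks with no gene had their centre 1 to 1000 bases past the 3′ end of a protein-coding gene over 5000 bases. Those were not members.

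**Figure D1:**
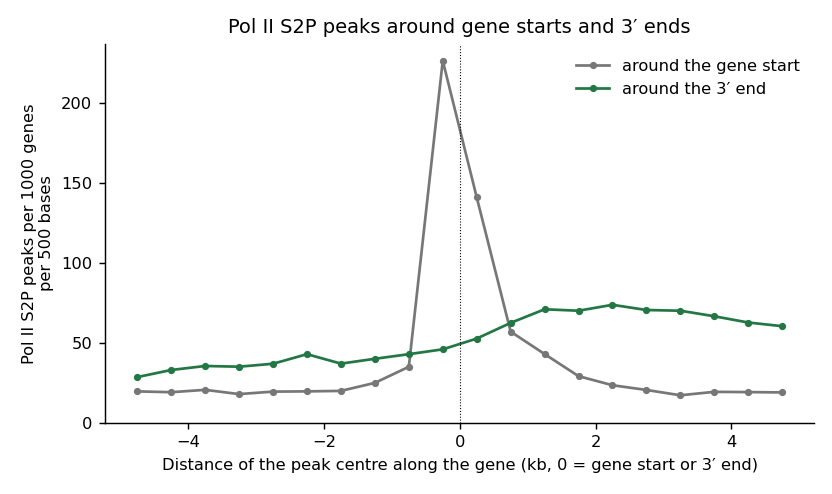
Pol II S2P peaks per 1000 genes in bins of 500 bases (y axis) against the distance of the peak centre along the gene in kb (x axis), around gene starts (grey) and 3′ ends (green) of 13520 genes. The density past 3′ ends reaches 73.9 between 2000 and 2500 bases past the end, whereas that at starts is highest, 226.8, in the 500 bases before the start.

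Most members lay inside the transcribed gene. The centre was in a UTR for 961 of the 1543, in an intron for 184, in a coding exon for 94, in another exon for 37 and past the gene end for 267. The median position was -422 bases from the end, where negative positions lie inside the gene. Among genes with a member, 1150 had 1, 192 had 2 and 3 had 3, namely Sox10, Gtpbp4 and Cbx5. Sox10 encodes a transcription factor of the neural crest, Gtpbp4 a GTPase of ribosome assembly and Cbx5 the heterochromatin protein HP1 alpha. Their 9 peaks were low, and 2 of them passed a mean of 50. The strongest, at Sox10, scored 37 and 68 in Ctrl and 92 and 61 in sKO.

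In base composition the members resembled gene body peaks and not start peaks. GC content in 300 bases around the centre had a median of 47.7% for members, 47.0% for body peaks and 62.0% for start peaks. A ratio of observed to expected CpG over 0.6 was found in 4.21% of members, 4.36% of body peaks and 74.2% of start peaks. Some members stood beside another gene. The start of another protein-coding gene lay within 1000 bases of 74 members, the 3′ end of another such gene within 1000 bases of 248, and any annotated transcript start within 1000 bases of 218 (14.1%). The median GC content was 53.0% in these 218 and 46.7% in the other 1325.

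The level of the members was close to that of body peaks and below that of start peaks. For members the median score per kb of peak was 90.1 and 125 in Ctrl against 145 and 102 in sKO. For body peaks it was 87.8 and 125 in Ctrl and 142 and 99.5 in sKO, and for start peaks 129 and 169 in Ctrl and 179 and 131 in sKO. Divided by the body median of the same library, the members' median was 1.02 ± 0.0133 (SD, n = 4 libraries). Divided by the start median it was 0.696 and 0.742 in Ctrl and 0.811 and 0.784 in sKO. The sKO libraries were thus both above the Ctrl libraries in this ratio, from which the scale of a library cancels. The body median divided by the start median was likewise higher in both sKO libraries, so this order is not particular to the members. Members whose centre lay past the end had a higher level, with a mean of 129 ± 26.9 per kb, than those before the end, with 114 ± 24.6 (SD, n = 4 libraries). Within each of the 4 libraries the median past the end was the higher one. The members past the end were also longer, with a median of 625 bases against 335. A peak past the end had to overlap its gene to be listed, and the part of peak length in this difference was not tested.

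**Figure D2:**
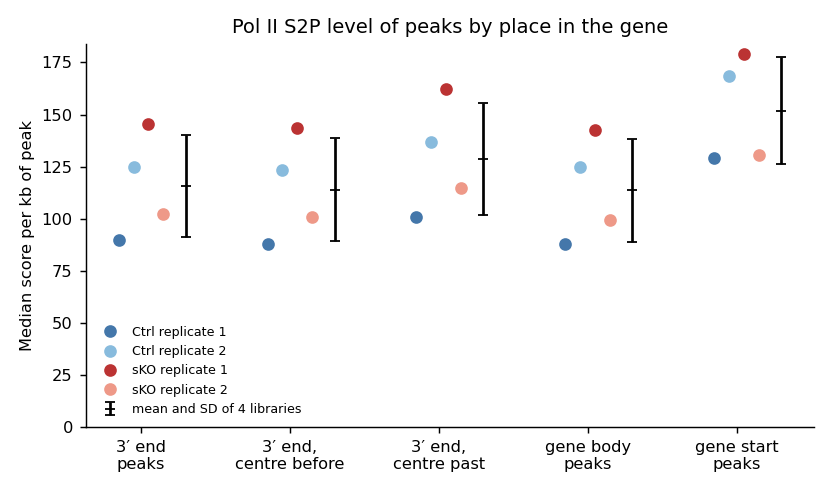
Median Pol II S2P score per kb of peak (y axis) for 3′ end peaks, for those with their centre before or past the end, and for gene body and gene start peaks (x axis), 1 point per library, with the mean and SD of the 4 libraries in black. In each library start peaks lie highest, and 3′ end peaks lie at or just above body peaks.

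Single members spanned a wide range, from a mean score of 10.25 to 663.5 with a median of 41.25, and 656 of the 1543 passed the mean of 50 required for testing. The score followed the length of the peak, with a Spearman correlation across members between 0.880 and 0.940 in the 4 libraries. It did not follow the score of the start peak in the same gene, with correlations between -0.0195 and 0.0171 over the 869 members whose gene had one, nor the length of the gene, between -0.0391 and -0.000864 over all 1543. The 2 peaks of a gene share libraries and gene length, so these are descriptions across genes.

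The highest score belonged to a peak of Susd1, with 694 and 715 in Ctrl and 756 and 489 in sKO. Rab26, which encodes a small GTPase of vesicle transport, came next with 507 and 513 in Ctrl and 571 and 397 in sKO, but the start of Traf7 lay 120 bases from its centre. In both genes the sKO libraries lie on either side of the Ctrl pair. Of the 10 highest members, 4 had an annotated transcript start within 1000 bases, namely Susd1, Rab26, Ppp2r3d and Tpp1. The 2 ribosomal protein genes in this group had no such start nearby. Rps15a scored 345 and 424 in Ctrl and 624 and 382 in sKO, and Rps19 329 and 413 in Ctrl and 492 and 375 in sKO. The genotypes overlapped at both. The peak of Rps19 had its centre 277 bases past the gene end.

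On the deposited scale no member differed between genotypes by the test used, limma on log2(score + 1) over all 22353 autosomal peaks with a mean over 50, where a call required an adjusted p (Benjamini-Hochberg) below 0.1 and a log2 fold change beyond 0.5 in size. Of the 656 members tested, 0 were called higher in sKO and 0 lower, against a background of 0.0447% and 0.00447% of all peaks. At an unadjusted p under 0.05, 25 members were higher (3.81%, background 3.31%) and 0 lower (background 0.152%). The sKO scores were both above the 2 Ctrl scores at 127 members (19.4%, background 16.7%) and below them at 24 (3.66%, background 6.84%). The median log2 fold change of the members was 0.21 and that of all tested peaks 0.11. That shift could not be told from the spread between replicates, since the members' median log2 score was 6.27 and 6.69 in Ctrl and 6.94 and 6.43 in sKO. Without sKO replicate 1 the median was -0.02, and without Ctrl replicate 1 it was 0.00.

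When the libraries were scaled to equal totals over autosomal peaks, which removes any difference in overall amount, 19 members were called higher in sKO (2.90%, background 2.51%) and 3 lower (0.457%, background 1.19%). The median log2 fold change was then 0.07 for members, -0.04 for body peaks, -0.13 for start peaks and -0.03 for all tested peaks. The share called higher was near the background. The counts rested on single libraries, since 5 members were called without Ctrl replicate 1 (0.762%, background 0.854%) and 5 without sKO replicate 1 (0.762%, background 1.1%), against 29 without Ctrl replicate 2 (4.42%, background 5.38%) and 15 without sKO replicate 2 (2.29%, background 2.99%). Of the 22 members called, 1 kept its call with each of the 4 libraries left out in turn. Of the 183 tested members with their centre past the end, 9 were called higher (4.92%) and 3 lower (1.64%). Of the 473 before the end, 10 were called higher (2.11%) and 0 lower. Over all members, those past the end had a higher median mean score, 83.75 against 36.5, and the part of score in these shares was not tested.

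The member with the smallest p was that of Ppp1r10 (ENSMUSG00000039220), at chr17:35932242-35932982, centred 329 bases past the gene end. Ppp1r10 encodes PNUTS, the nuclear targeting subunit of protein phosphatase 1, which is itself known for a role in transcription termination. It scored 49 and 75 in Ctrl against 247 and 120 in sKO. The genotypes did not overlap, and the log2 fold change was 1.49 with an SE of 0.41 and an adjusted p of 0.251 in limma on the deposited scale. With equal totals it was 1.35 with a limma adjusted p of 0.000314. This was the member that kept its call on that scale with each library left out, with log2 fold changes between 1.09 and 1.62.

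Among members whose genotypes did not overlap, another 4 followed in order of p, all higher in sKO. None of them passed the adjusted threshold on the deposited scale. Klrg2, a member of the C-type lectin family, scored 53 and 123 in Ctrl and 234 and 156 in sKO. Sbno2, a transcriptional coregulator in cytokine responses, scored 41 and 105 in Ctrl and 159 and 146 in sKO, with its centre 24 bases past the gene end and 529 bases from that of Gpx4. Capn2, the large subunit of a calcium-dependent protease, scored 30 and 55 in Ctrl and 126 and 84 in sKO. Il6st, the receptor subunit gp130 that interleukin-6 family cytokines share, scored 48 and 85 in Ctrl and 168 and 112 in sKO. With equal totals the log2 fold changes of these 4 were 1.09, 1.06, 1.18 and 0.95, with limma adjusted p of 0.00268, 0.00992, 0.0202 and 0.0239. Without Ctrl replicate 1 they were 0.68, 0.58, 0.94 and 0.73, and none of the 4 calls held (limma adjusted p between 0.324 and 0.588). Called with equal totals and among the largest changes were also Sh3d21 (27 and 97 in Ctrl, 161 and 89 in sKO) and 1700030K09Rik (30 and 39 in Ctrl, 92 and 74 in sKO). The Ctrl and sKO scores of Sh3d21 overlapped on the deposited scale, and its change with equal totals was 0.35 without Ctrl replicate 1, where limma gave an adjusted p of 0.875. The peak of 1700030K09Rik had its centre 32.5 bases from the 3′ end of Cherp, and its call was lost with any 1 library left out.

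In the other direction the smallest p belonged to Bsg, which encodes basigin, a membrane glycoprotein that accompanies lactate transporters. Its peak scored 106 and 109 in Ctrl and 62 and 65 in sKO, with no overlap. The log2 fold change was -0.75 on the deposited scale, with an adjusted p of 0.9998 in limma, and -0.89 with equal totals, with an adjusted p of 0.0616 that became 0.627 without Ctrl replicate 1 and 0.457 without sKO replicate 1. Rdh5, a retinol dehydrogenase, scored 155 and 168 in Ctrl and 119 and 96 in sKO, and the 3′ end of Cd63 lay 457 bases from the peak centre. Lag3, an inhibitory receptor of lymphocytes, scored 125 and 188 in Ctrl and 128 and 85 in sKO. Both passed the threshold with equal totals (log2 fold changes of -0.73 and -0.69) but not with quantile normalisation, where limma gave an adjusted p of 0.106 for Rdh5 and 0.134 for Lag3. The call was also lost without Ctrl replicate 1 and without sKO replicate 1 at Rdh5 and with any 1 library left out at Lag3, and the groups overlapped at Lag3 on the deposited scale. Dnajc11, a mitochondrial chaperone cofactor (74 and 95 in Ctrl, 49 and 56 in sKO), Prdx2, a peroxidase (55 and 97 in Ctrl, 48 and 41 in sKO), and Gm49527 (153 and 128 in Ctrl, 109 and 88 in sKO) were lower in both sKO libraries and passed the threshold on neither scale. The centre of the Prdx2 peak lay 41 bases from the 3′ end of Junb.

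The scale of a library cancels from a ratio of 2 peaks in 1 gene. The score of each member was therefore divided by that of the start peak of the same gene, on a log2 scale, where both peaks had a mean over 50. This was possible for 286 members in 271 genes, among 3737 peaks tested. The members' median log2 ratio was -0.50 and -0.35 in Ctrl against -0.22 and -0.28 in sKO, so both sKO medians lay above both Ctrl medians. The median change was 0.27, with quartiles of -0.02 and 0.51, and it was above 0 at 211 members (73.8%). For body peaks it was 0.17, with 66.5% above 0. Whether members differ from body peaks in this was not tested. Leaving out each library in turn gave medians between 0.21 and 0.31.

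Both sKO libraries were above both Ctrl libraries in this ratio at 114 members (39.9%, background 33.3%) and below them at 23 (8.04%, background 10.8%). By limma, 3 members were called higher (1.05%, background 1.66%) and 1 lower (0.350%, background 0.107%). Without Ctrl replicate 1, limma called 0 of the members and 0 of all 3737 peaks in either direction. When a mean over 100 was required, 10 of 78 members were called higher (12.8%, background 6.57%). Across the 286 members the change of the ratio went down with the GC content of the 3′ end peak, with a Spearman correlation of -0.32, and the part of base composition in the result was not tested. Its correlation with gene length was 0.21.

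The 3 members called higher were those of Ppp1r10, Vcpip1 and Pcbp2. For Ppp1r10 the log2 ratio was -2.37 and -1.96 in Ctrl against -0.56 and -0.59 in sKO, a change of 1.59 with a limma adjusted p of 0.00309. Its start peak scored 258 and 294 in Ctrl and 365 and 181 in sKO, which overlap, so the genotypes were separated at the 3′ end and not at the start. Vcpip1, a deubiquitinase that works with the VCP segregase, had log2 ratios of -0.03 and 0.02 in Ctrl against 1.01 and 1.34 in sKO, a change of 1.18 with an adjusted p of 0.0323 in limma. Pcbp2, an RNA-binding protein with affinity for poly(C), had log2 ratios of -0.54 and -0.57 in Ctrl against 0.38 and 0.92 in sKO, a change of 1.21 with an adjusted p of 0.0401 in limma. At all 3 the sKO values lay above the Ctrl pair. Without Ctrl replicate 1 the 3 calls were lost, with changes of 1.38, 1.15 and 1.23, and those of Vcpip1 and Pcbp2 were also lost without Ctrl replicate 2 or sKO replicate 2. Next in order of p were Sqstm1, the autophagy receptor p62, with a change of 0.88, and Rps15a, with 0.80, and neither passed the threshold.

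The member called lower in this ratio was that of Mfsd2a, a transporter of lysophospholipids, with log2 ratios of 2.06 and 1.55 in Ctrl against 0.66 and 0.71 in sKO, a change of -1.12 with an adjusted p of 0.0468 in limma. The call was lost without Ctrl replicate 1, at a change of -0.86, and without sKO replicate 1, at -1.09. Its 3′ end peak scored 124 and 160 in Ctrl and 140 and 99 in sKO, which overlap, whereas its start peak scored 29 and 54 in Ctrl and 88 and 60 in sKO. On the deposited scale the lower ratio thus came with a higher start peak in sKO and not with a separated 3′ end peak. With equal totals, however, both sKO scores of the 3′ end peak lay below both Ctrl scores. The log2 fold change there was -0.40, with an adjusted p of 0.420 in limma. Which of the peaks carries the change therefore depends on the scale. Rab26, Bsg, Eme1 and Eif5a were next, and at the first 3 of these the changes were -0.74, -0.97 and -0.85, with adjusted p for all 4 between 0.130 and 0.298 in limma. At Eif5a a single library decided the value, since its log2 ratio was -0.87 in Ctrl replicate 1, -3.05 in Ctrl replicate 2 and -2.99 and -2.93 in sKO, and the change was 0.09 without Ctrl replicate 1.

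**Figure D3:**
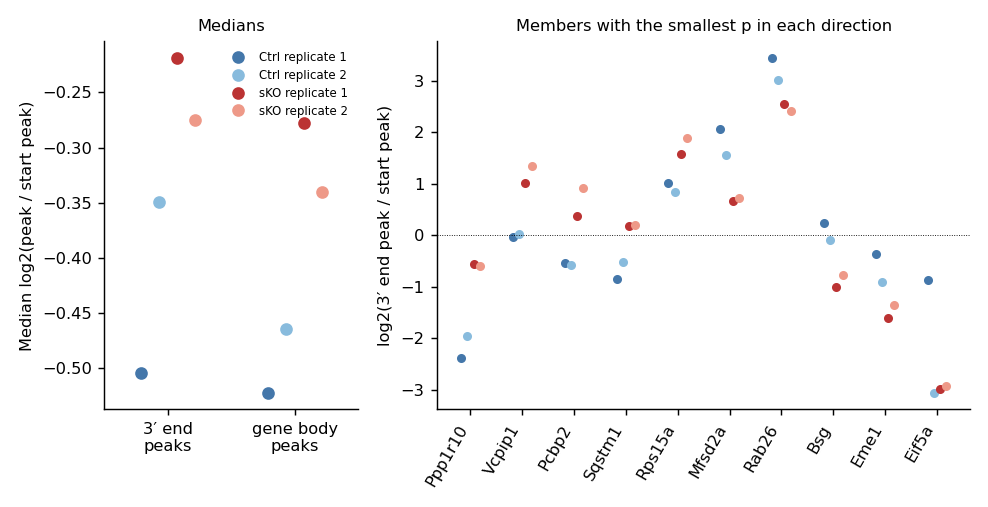
Left, median over genes of the log2 ratio of a peak's Pol II S2P score to that of the start peak (y axis) for 286 3′ end peaks and 3286 gene body peaks (x axis), 1 point per library. Right, the same log2 ratio for the 10 members with the smallest p, 5 in each direction. Both sKO medians lie above both Ctrl medians, and at Eif5a 1 Ctrl library stands apart.

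Scores were also summed in the 5000 bases past and the 5000 bases before 3′ ends, over all short autosomal peaks whatever gene they were listed with, around 3793 genes longer than 10000 bases with a start peak. There were 2559 peaks before the ends, covering 1127 kb, and 4409 past them, covering 2313 kb. The score past the end was 2.26 and 2.25 times that before it in Ctrl and 2.30 and 2.31 times in sKO. At the 1503 of these ends with no other protein-coding gene in the 10000 bases past them, the ratio was 2.24 and 2.36 in Ctrl and 2.56 and 2.59 in sKO. In each set of ends the sKO pair lay above the Ctrl pair, and the mean ratio was 1.02 times higher in sKO over all ends and 1.12 times at isolated ends. An exact permutation test of 2 libraries against 2 cannot give a p under 0.333, and none was made. At isolated ends the bin between 7000 and 8000 bases past the end held 5.81% and 6.27% of the score in Ctrl and 7.26% and 6.47% in sKO. The last 1000 bases of the gene held 5.93% and 5.52% in Ctrl and 5.03% and 5.30% in sKO. The first 1000 bases past the end, where members lie, held 7.51% and 7.21% in Ctrl and 6.59% and 7.11% in sKO. This share was thus lower in sKO, as it also was in the next 1000 bases. In each of these bins the genotypes did not overlap, by a margin below the gap between libraries of 1 genotype.

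**Figure D4:**
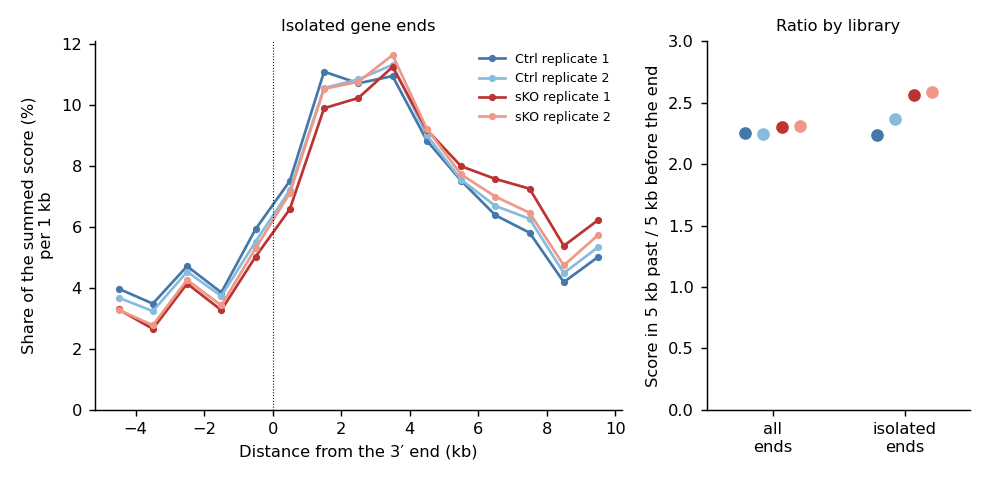
Left, share of the summed Pol II S2P score per 1 kb (y axis, %) against the distance from the 3′ end in kb (x axis) around 1503 isolated gene ends, 1 line per library. Right, score in the 5 kb past the end divided by that in the 5 kb before it, 1 point per library, for all and for isolated ends. At isolated ends the sKO points (2.56 and 2.59) lie above the Ctrl points (2.24 and 2.36).

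H4K20me1 is the substrate that Kmt5b methylates further. It covered more of the members than of the other classes. Of the 1543 members, 82.6% overlapped an H4K20me1 peak, against 74.7% of body peaks and 54.8% of start peaks. The 996 H4K20me1 peaks concerned were broad, with a median of 30500 bases, so most reach well beyond the member, and 360 of them also held a start peak. Their median score per kb was 26.0 and 33.9 in Ctrl and 50.7 and 54.4 in sKO, with no overlap between genotypes. In Ctrl these peaks were denser than those over body peaks (21.7 and 27.7) and start peaks (22.2 and 28.7), whereas in sKO the classes lay close together, with 50.5 and 54.3 over body peaks and 51.8 and 55.5 over start peaks.

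On the deposited scale 772 of the 996 peaks were called higher in sKO (77.5%, background 90.1%) and 0 lower. The median log2 fold change was 0.81, against 1.10 over body peaks, 1.08 over start peaks and 1.14 over all 40902 tested. The count was 599 without Ctrl replicate 1 (60.1%, background 78.6%), 882 without Ctrl replicate 2 (88.6%, background 97.5%), 289 without sKO replicate 1 (29%, background 57.3%) and 192 without sKO replicate 2 (19.3%, background 43.8%). With equal totals the median was -0.17, against 0.17 over all peaks, and 102 were called higher (10.2%, background 22.6%) and 204 lower (20.5%, background 4.41%). The median over the members was thus below that over all peaks on both scales, and its sign depends on the scale. Where no start peak shared the H4K20me1 peak, the median was 0.85 for 636 peaks. At the named ends, the H4K20me1 peak over Ppp1r10 scored 301 and 430 in Ctrl and 535 and 800 in sKO, that over Bsg 456 and 599 in Ctrl and 587 and 550 in sKO, and that over Mfsd2a 274 and 323 in Ctrl and 1031 and 1327 in sKO.

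**Figure D5:**
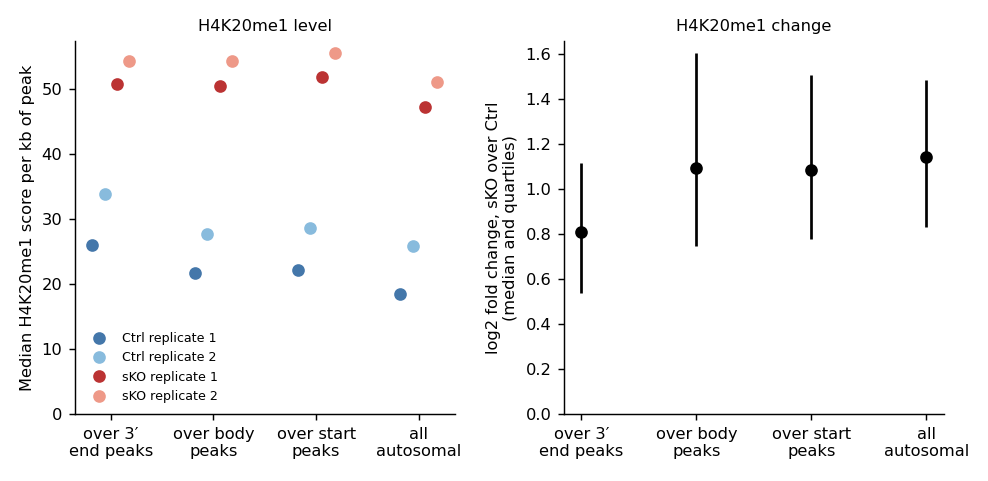
Left, median H4K20me1 score per kb (y axis) of H4K20me1 peaks over 3′ end, body and start peaks of Pol II S2P and of all tested ones (x axis), 1 point per library. Right, median log2 fold change of sKO over Ctrl on the deposited scale, with lines from the first to the third quartile. The peaks over 3′ ends have the highest Ctrl level and the smallest change, 0.81.

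Of 158 gene symbols in 8 lists chosen here, 34 had a peak at the 3′ end (21.5%). The share was 7.90% of the 17030 autosomal protein-coding genes over 5000 bases and 15.8% of the 4638 with a start peak. The lists were not limited to autosomes or by gene length, so these shares rest on unlike gene sets. The 34 genes held 39 members, of which 16 were tested. By limma 0 were called on either scale, with 0 at an unadjusted p under 0.05 on the deposited one. Of 21 symbols for cleavage and polyadenylation, which hold Sympk under 2 spellings, 2 had a member. That of Rbbp6, a scaffold of the cleavage complex, scored 34 and 72 in Ctrl and 85 and 60 in sKO, and that of Sympk lay 280 bases from the start of Rsph6a. Of 32 genes for termination and elongation, 6 had 7 members and 1 of these was tested. Aff4, the scaffold of the super elongation complex, had 2 members, and the 1 past its end scored 114 and 175 in Ctrl and 175 and 127 in sKO. No gene of H4K20 methylation had a member.

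The 10 members in the list for cytoskeleton and adhesion included Cnn2, an actin-binding calponin, with 157 and 161 in Ctrl and 190 and 139 in sKO, and Actn4, an actin crosslinker, with 81 and 126 in Ctrl and 172 and 86 in sKO. The 4 tested had a median log2 fold change of -0.12, against 0.21 for all members tested. The secreted matrix list had 6 members, and that of Col1a2, a chain of type I collagen, scored 42 and 69 in Ctrl and 50 and 53 in sKO. Of the immediate early genes, Fosl2, a subunit of AP-1, scored 209 and 283 in Ctrl and 376 and 263 in sKO, Klf6 222 and 320 in Ctrl and 246 and 235 in sKO, and Egr1 240 and 213 in Ctrl and 220 and 169 in sKO. The genotypes overlapped at each of these members.

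Of the translation factor list, 5 of 8 members were tested. Eef1d scored 136 and 178 in Ctrl and 229 and 178 in sKO, with the start of Naprt 126 bases from the peak centre, and Npm1, a nucleolar chaperone counted with this list, scored 96 and 79 in Ctrl and 123 and 98 in sKO. The ratio to the start peak had a median change of 0.29 over these 5, and both sKO libraries were above both Ctrl libraries at 2. Cdkn1a, the cell cycle inhibitor p21 and 1 of the genes the study follows, had 2 members. The one at the end of its last exon scored 142 and 218 in Ctrl and 304 and 202 in sKO, with a log2 fold change of 0.49 and a limma adjusted p of 0.9998.

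Peaks continued across the limit of 1000 bases. The 141 members 900 to 1000 bases from the end had a median mean score of 38.0, and the 119 peaks of the same kind between 1000 and 1100 bases had 31.2, and all of them lay before the end.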

How the data were processed

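The study's methods state for CUT&RUN that reads were trimmed with Trimmomatic, aligned to GRCm38 with STAR and deduplicated with Picard, and that values rest on coverage normalised by spike-in. The labels name DNA of S2 cells as the spike-in. The deposited tables hold 1 set of peaks per antibody, each listed with at most 1 gene. The peak callers MACS2 and SICER are named, but the antibody each was used for was not clear from the sources used here. How the peaks were merged and annotated for CUT&RUN is not given there. The deposited values are a score per peak in whole numbers, taken as this coverage. The deposited tables also hold the fraction of each peak inside its gene, which the authors computed and no test here used. The scores were not treated as read counts, so the depth in reads is unknown and no counting interval is given. The spike-in numbers were not used here and the scale could not be checked. The 2 IgG libraries were not analysed here.

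Genotypes were compared with limma 3.58.1 in R 4.3.3 (eBayes with a mean-variance trend) on log2(score + 1), with genotype as the only factor, 2 libraries per group, and autosomal peaks with a mean over 50. Fold changes on this scale understate those of low peaks. p-values were adjusted over all peaks tested. With 2 samples of a genotype, p-values measure only spread between samples, which eBayes pools in part over all peaks tested. The procedure was tested on simulated data. Sequences, GC content and hexamers were read from GRCm38 with pysam 0.24.0, and gene ends without a listed symbol were named from GENCODE M21. Alternatives were a replicate block, each library left out, other pseudocounts, filters, scales and definitions of a member.

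Members and lists were chosen with earlier results of these data known. Named are the 10 members with the highest mean score, the 5 with the smallest p in each direction whose genotypes do not overlap, those called with the largest change on equal totals, the 5 with the smallest p in each direction for the ratio to the start peak, up to 3 of each list, and genes with the most members. In a few lists fewer than 3 are described in the text. One member that the rule names is not reported here.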

Additional observations from a re-analysis of the deposited data

How the results depend on the processing

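The direction of the ratio to the start peak held throughout. Its median change stayed between 0.21 and 0.31 under all 11 alternatives, the replicate block included (0.27). The number of members called in this ratio (4) was 3 with the replicate block, 0 to 6 with a library left out, 10 with a mean over 100, 0 with no trend in eBayes, 2 within 500 bases of the end and 9 against the sum of all start peaks. On the deposited scale, 0 to 1 members were called with a library left out, and the median change of 0.21 ranged from -0.019 to 0.43. The number called was 22 with equal totals and 17 with quantile normalisation. Those 17 were 16 higher and 1 lower, against 474 and 153 of all 22353 peaks. Counts over all peaks moved with the setting in the ratio too. With the sum of all start peaks, 7 members were higher and 2 lower, against 86 and 9 of all 3823 peaks. With the replicate block, 3 members were higher and 0 lower, against 23 and 2 of all 3737 peaks. With no trend in eBayes, 1 of all 3737 peaks was called higher and 0 lower. The counts alone therefore do not set the members apart. Chosen after seeing the data were the fits with equal totals and either the replicate block, which called 19, or a library left out, which called 5 and 29 without Ctrl replicates 1 and 2 and 5 and 15 without sKO replicates 1 and 2. The 19 with equal totals and the replicate block were 17 higher and 2 lower, against 524 and 222 of all 22353 peaks. With the replicate block the calls of Mfsd2a in the ratio (limma adjusted p of 0.116) and of Lag3 with equal totals (0.111) were lost.

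For H4K20me1 the 772 calls became 763 with the replicate block, 192 to 882 (background 43.8% and 97.5%) with a library left out, 306 with equal totals and 234 with quantile normalisation. The 306 with equal totals were 102 higher and 204 lower, against 9244 and 1805 of all 40902 peaks. With quantile normalisation 78 were higher and 156 lower, against 4738 and 4746 of all 40902 peaks. The median change turned negative, to -0.17 with equal totals (also with the replicate block, chosen after seeing the data, where 306 were called) and -0.12 with quantile normalisation. With equal totals and a library left out it was -0.15 (307 calls) and -0.20 (326) without Ctrl replicates 1 and 2, and -0.19 (300) and -0.16 (270) without sKO replicates 1 and 2. In these fits the median over all tested H4K20me1 peaks was positive, between 0.16 and 0.18. Their call counts add both directions and rest on a single library in a group, so they are not read as a difference from all peaks. The score per peak in place of the score per kb moved the members' level to 1.07 times that of body peaks and 0.569 times that of start peaks, since peaks of the classes differ in length. The ratio of the score past the end to that before it, sKO over Ctrl, was 1.02 over all ends. At isolated ends, a choice made after seeing the data, it was 1.12, and 1.09 and 1.15 without Ctrl replicates 1 and 2, and 1.12 and 1.11 without sKO replicates 1 and 2. Among the named members, the change of the ratio at Eif5a ran from -2.09 to 0.093 with a library left out, and on the deposited scale the log2 fold change ran from 0.30 to 2.11 at Sh3d21, 0.53 to 1.87 at Sbno2, 0.63 to 1.83 at Klrg2, -1.11 to -0.30 at Prdx2 and -0.84 to -0.26 at Lag3. The cause of these shifts was not tested.

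Same-numbered libraries did not deviate together, with a correlation of -0.0445 over Pol II S2P peaks and 0.0345 over H4K20me1 peaks, so the replicate numbers are not taken as pairs. The SE of the log2 fold change was between 0.39 and 0.57 at the named members tested on the deposited scale, so differences of that size could not be detected with 2 libraries per genotype.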

Other observations

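On the X chromosome, which the comparisons leave out, 20 peaks in 19 genes met the same rule. Their scores summed to 1092 and 1262 for Ctrl and to 1475 and 1041 for sKO, so the genotypes overlapped, and 7 of the 20 had a mean over 50.

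Among the 22 members called with equal totals were several that the naming rule did not reach, chosen here after their values were seen. Ccnl1, a cyclin of RNA splicing, scored 179 and 158 in Ctrl and 385 and 221 in sKO at a centre 691 bases past its end. Hjurp, the chaperone of the centromeric histone CENP-A, scored 242 and 235 in Ctrl and 433 and 335 in sKO. Nvl, an ATPase of ribosome assembly, scored 174 and 285 in Ctrl and 464 and 349 in sKO, and Cbx1, the heterochromatin protein HP1 beta, 84 and 106 in Ctrl and 212 and 139 in sKO. The genotypes did not overlap at any of these 4 members, but each lost the call in limma with at least 2 of the 4 libraries left out in turn.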
